A study of Mus musculus with 4 samples.

Results

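The desmosomal cadherin genes were examined as a locus of open chromatin in mouse hair follicle stem cells. The 9 genes Dsc3, Dsc2, Dsc1, Dsg1c, Dsg1a, Dsg1b, Dsg4, Dsg3 and Dsg2 lie in this order over 643.6 kb of chromosome 18. ATAC-seq peaks were taken as members when their nearest protein-coding gene body within 100 kb of the summit was one of these genes, and overlapping peaks of the 2 genotypes were joined into regions. This gave 54 regions out of 79122 in all, of which 70899 had a protein-coding gene within that distance. The WT list held 48 of the peaks, in 47 regions, and the dKO list held 42 peaks in 42 regions.

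The donors were male mice aged 70 days after birth (P70), whose back skin was in the second telogen, when follicles rest between growth phases. WT mice, 13 and 15 by number, were NFIB fl/fl, NFIX fl/fl and R26-YFP fl/fl without Cre. The dKO mice, 14 and 16, had the same floxed alleles together with Sox9-CreER, an inducible Cre under Sox9 control, so the controls also carried the floxed genes. The labels do not give the time of induction. NFIB and NFIX are nuclear factor I transcription factors. Sorted cells were DAPI-, Sca-1-, integrin alpha 6+ and CD34+, and those of dKO mice also YFP+, so that the gates differed by this marker. Each genotype has a single deposited peak list covering both mice. There was therefore no spread between mice, no p-value was computed, and each difference below compares these lists only. In such bulk samples a smaller share of cells with an open region and lower accessibility in each cell cannot be told apart.

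Desmosomes are junctions that tie the keratin filaments of neighbouring epithelial cells together. Their adhesive part is made of desmogleins (Dsg) and desmocollins (Dsc), transmembrane cadherins whose tails bind plakoglobin and plakophilins, which in turn bind desmoplakin and keratin. In stratified epithelium Dsc3 and Dsg3 are typical of the basal layer, Dsg1 and Dsc1 of the upper layers, Dsg2 and Dsc2 are more widely expressed, and Dsg4 belongs to the hair shaft and upper epidermis. Mice without desmoglein 3 shed their telogen hair. In the mouse the Dsc genes are known to be transcribed towards lower and the Dsg genes towards higher coordinates, so the families point away from each other; strand is not part of the gene table used here. All positions below are on chromosome 18 of mm10, and the distance of a region to a gene is that of its summit unless another measure is named.

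Most regions at the desmosomal cadherin genes were present in both genotypes. Of the 54 regions, 35 had a peak in both lists and are called shared (64.8%, Wilson 95% interval 51.5 to 76.2), against 66.0% of all regions assigned to a gene. A further 12 (22.2%, 13.2 to 34.9) were found in WT alone, against 21.2% of all. In dKO alone there were 7 (12.96%, 6.42 to 24.4), against 12.8% of all. The shares at the cadherin genes were thus close to the background, and each background value lay within the interval of the members. Intervals cover counting error only.

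**Figure D1:**
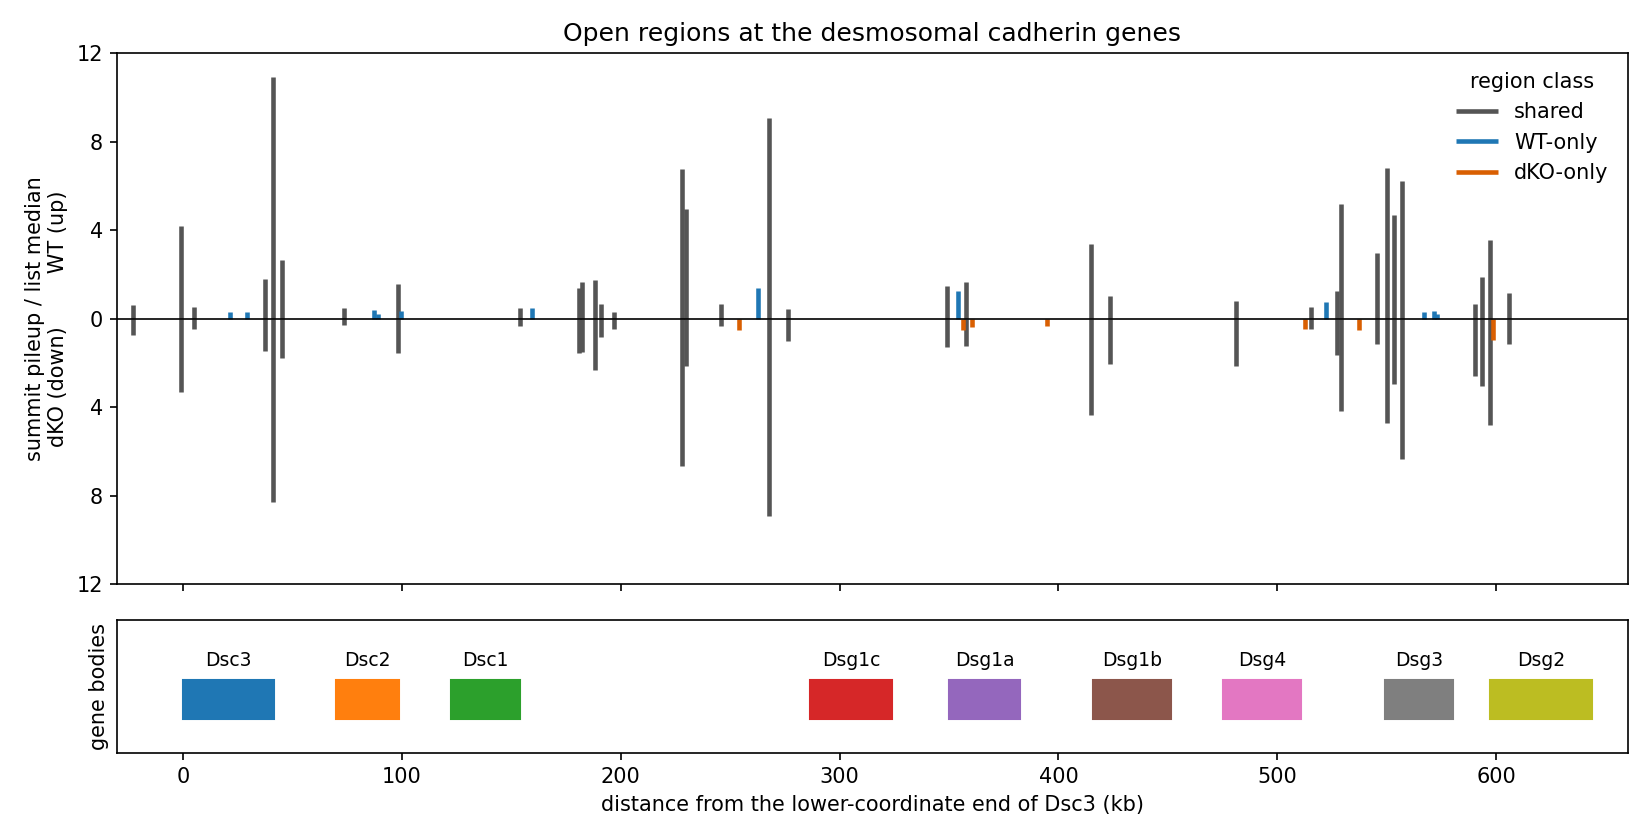
Summit pileup divided by the median pileup of its list, WT upwards and dKO downwards, for the 54 regions (bars), against distance in kb from the lower-coordinate end of Dsc3, with the 9 gene bodies below. Grey bars are shared, blue bars WT-only and orange bars dKO-only regions. The tallest bars, at the upper end of Dsc3 and between Dsc1 and Dsg1c, are shared, and the single-list bars are short.

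Pileup is the number of reads or fragments over the summit, and it was divided by the median of its own list, 73 in WT and 38 in dKO, to give a scaled pileup. The lowest local background of any peak was 5.29 for WT against 2.73 for dKO, so the WT list was the deeper one if both were called alike. Shared regions of the locus had a median scaled pileup of 1.64 in WT and 1.63 in dKO. In WT they ran from 0.288 to 10.9 and in dKO from 0.289 to 8.92. WT-only regions were weaker, with a median of 0.336 (0.192 to 1.37), and so were dKO-only regions, with 0.50 (0.342 to 0.974). Their peaks were also narrower, with a median width of 413 bp for WT-only and 370 bp for dKO-only regions, against 793 bp in WT and 697 bp in dKO for shared ones.

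The counts of single-list regions were small at each gene. The 3 desmocollin genes had 6 WT-only regions among 20 (30%, 14.5 to 51.9) and 0 dKO-only ones, where 3 counts of 20 set an upper limit of 15%. The 6 desmoglein genes had 6 WT-only (17.6%, 8.35 to 33.5) and 7 dKO-only regions among 34 (20.6%, 10.3 to 36.8). These intervals included the shares of all regions, 21.2% WT-only and 12.8% dKO-only, and the limit at the desmocollin genes lay above the latter. Neither family was thus told apart from all regions, and a difference between the families was not tested. Dsc3 had 2 WT-only and 6 shared regions, Dsc2 had 3 and 2, and Dsc1 had 1 and 6. Among desmogleins, Dsg3 had 3 regions found in WT alone, 1 in dKO alone and 4 in both, and Dsg4 had 1, 1 and 4. At Dsg2 no region was WT-only, 1 was dKO-only and 4 were shared.

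**Figure D2:**
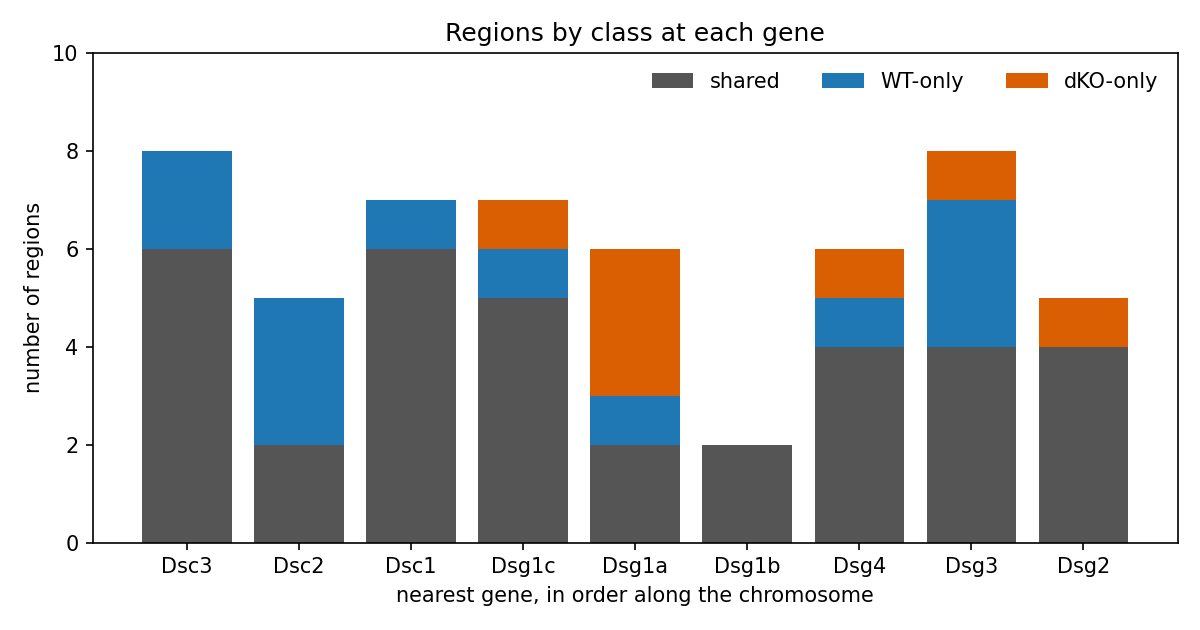
Number of regions (vertical axis) at each of the 9 genes, in order along the chromosome, split into shared (grey), WT-only (blue) and dKO-only (orange). Dsc3 and Dsg3 have 8 regions each and Dsg1b has 2, and no orange segment appears at the Dsc genes.

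The Dsg1 genes are recent copies of one another in the mouse, and how reads that match several copies were treated is not given in the sources used here. Their counts are therefore uncertain. Dsg1a had 1 region in WT alone, 3 in dKO alone and 2 in both, but only 1 in dKO alone at a q value of 1e-05 or less. Dsg1c had 1, 1 and 5, and Dsg1b had 2 shared regions and no others. When the 3 Dsg1 genes were left out, 3 of 39 regions were dKO-only (7.69%, 2.65 to 20.3) and 10 were WT-only (25.6%, 14.6 to 41.1). Genes with any region had a median of 2 regions (quartiles 1 and 5) over 15798 protein-coding genes, so 8 of the 9 cadherin genes, with 5 to 8, lay at or above the upper quartile.

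Of the 19 single-list regions, 11 lay inside gene bodies (57.9%), as did 57.5% of all single-list regions. In this paragraph, regions within 1 kb of a gene end are counted neither as inside genes nor as between them. Inside the cadherin genes 8 of 20 regions were WT-only (40%, 21.9 to 61.3), 3 were dKO-only and 9 were shared, whereas inside all protein-coding genes 26.1% were WT-only and 59.2% shared. Between genes 18 of 25 regions were shared (72.0%, 52.4 to 85.7), against 61.1% for all regions between genes. Both intervals included the value of all regions. The WT-only regions inside genes comprised 2 in Dsc3, 2 in Dsc2, 3 in Dsg3 and 1 in Dsg1a.

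At Dsg3, the WT-only regions followed each other in the second part of the gene. They had summit pileups of 21 (20527450 to 20528226), 24 (20532214 to 20532789) and 14 (20533647 to 20533901). At the same scaled level the dKO list would show pileups of 10.9, 12.5 and 7.29, and the lowest pileup in the whole dKO list was 9. In total 2 of the 12 WT-only regions fell under that limit, so that for these a lower level in dKO was not detectable. Under the lowest dKO pileup at the locus itself, 11, there were 3 of the 12.

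Stronger single-list regions were few. WT-only regions past the median pileup of the WT list numbered 2 of 12, against 14.5% of all WT-only regions. The first lay between Dsc1 and Dsg1c, 23.5 kb below Dsg1c (20223602 to 20224059), with a pileup of 100 and a deposited fold enrichment over local background of only 2.14. The second lay inside Dsg1a (20315030 to 20315489), with a pileup of 92, a fold enrichment of 5.01 and a deposited −log10 q of 33.6, the highest among the single-list regions of the locus. Its level would correspond to a dKO pileup of 47.9. The dKO-only regions past the dKO median numbered 0 of 7, against 10.5% of all dKO-only regions. The closest to it, inside Dsg2 (20559469 to 20559832), had a pileup of 37 and a fold enrichment of 1.86, and lay 556 bp above the shared region at the start side of that gene.

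Of the 18 gene ends at the locus 8 had a region, and regions at gene ends were mostly shared, close to the background. Within 1 kb of the 18 ends of the 9 gene bodies there were 9 regions, of which 8 were shared (88.9%, 56.5 to 98.0), against 89.7% of all gene-end regions. The exception was a WT-only region (20060318 to 20060710) just above Dsc2, with a pileup of 25. A region lay at the start side of 7 of the 9 genes and at the far side of 1, Dsc3. Dsg4, the hair shaft desmoglein, and Dsg1c had no region within 1 kb of either end, and at Dsg1c, one of the Dsg1 copies, this is uncertain. The edge of the nearest region was 5.28 kb from the start side of Dsg4 and 9.63 kb from that of Dsg1c.

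The start side of Dsc3, the basal desmocollin, carried the strongest region of the locus in WT. This region (20001189 to 20002564) had a pileup of 796 in WT and 315 in dKO, with the summit at the same base. Its scaled pileup was 10.9 in WT (Poisson 95% interval 10.2 to 11.7) and 8.29 in dKO (7.40 to 9.26). The log2 ratio of dKO over WT was −0.40 (counting interval −0.59 to −0.21), whereas by deposited fold enrichment, 8.27 in WT and 10.0 in dKO, the ratio was 0.28, of opposite sign. The region at the far end of Dsc3 (19959064 to 19960873) had pileups of 305 and 125 and a log2 ratio of −0.34 (−0.66 to −0.040), and by fold enrichment of 0.19.

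Dsg3, the basal desmoglein, had the next strongest start region in WT. That region (20509472 to 20512537) held 2 peaks in WT and 1 in dKO, with top pileups of 496 and 179. The scaled pileup was 6.79 in WT (6.21 to 7.42) and 4.71 in dKO (4.05 to 5.45), a log2 ratio of −0.53 (−0.78 to −0.28), and by fold enrichment the ratio was 0.26, again of opposite sign.

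The start regions of Dsg2 and Dsg1b had the opposite sign, with dKO above WT by pileup and by fold enrichment. That of Dsg2 (20557647 to 20558912), which also covers the end of the long noncoding RNA gene Gm46630, had pileups of 258 in WT and 182 in dKO. Its scaled pileup was 3.53 in WT (3.12 to 3.99) and 4.79 in dKO (4.12 to 5.54), a log2 ratio of 0.44 (0.16 to 0.72), and by fold enrichment of 0.096. That of Dsg1b (20374924 to 20376821) had pileups of 245 and 165 and a log2 ratio of 0.37 (0.078 to 0.66), and by fold enrichment of 0.18.

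The remaining start regions were weaker. Dsc2 (20058797 to 20059538) had pileups of 113 and 58, with a log2 ratio of −0.020 (−0.50 to 0.45). Dsg1a (20309351 to 20311073), where the long noncoding RNA gene Gm31237 also runs, had 108 and 48, with a ratio of −0.23 (−0.75 to 0.28). Dsc1 (20114415 to 20115347), a desmocollin of differentiated layers, had 37 and 12, with a ratio of −0.68 (−1.76 to 0.29). Each of these 3 intervals included no change.

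In WT the start regions ranked Dsc3, Dsg3, Dsg2, Dsg1b, Dsc2, Dsg1a and Dsc1 by scaled pileup. The Poisson intervals of Dsg2 and Dsg1b overlapped, as did those of Dsc2 and Dsg1a, and the other neighbours did not overlap. In dKO the intervals of Dsg2, Dsg3 and Dsg1b overlapped, so that Dsg3 no longer stood apart from Dsg2 and Dsg1b. In dKO too Dsc3 was the highest and Dsc1 the lowest, at 0.316 (0.163 to 0.552).

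**Figure D3:**
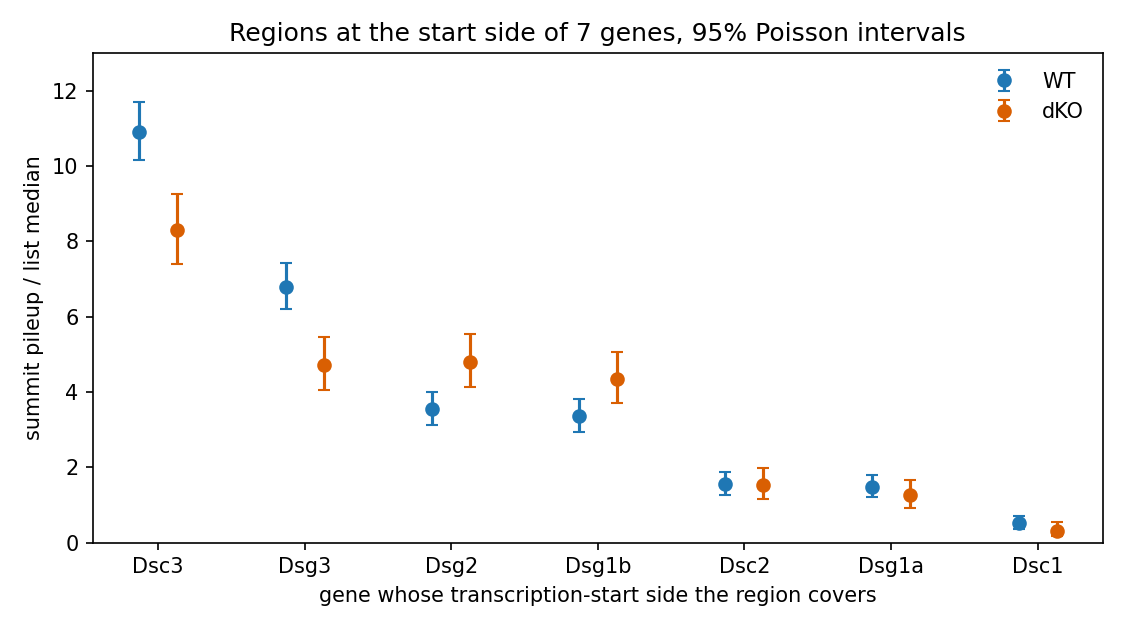
Scaled summit pileup (vertical axis) with Poisson 95% intervals for the shared region at the start side of 7 genes in WT (blue) and dKO (orange). WT is above dKO at Dsc3 and Dsg3, and dKO is above WT at Dsg2 and Dsg1b, with intervals that do not overlap at Dsc3, Dsg3 and Dsg2.

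The 35 shared regions differed in both directions. By scaled pileup 6 regions were at least 1.5-fold higher in dKO, 6 were at least 1.5-fold higher in WT, and 23 lay between. Among all 46759 shared regions assigned to a gene, 14% were at least 1.5-fold higher in dKO and 21.3% at least 1.5-fold higher in WT, against 17.1% in each direction at the locus. The median log2 ratio was −0.029 (order-statistic interval −0.32 to 0.23) at the locus and −0.15, which lies within that interval, over all shared regions. Scaling to the median of peaks in shared regions would raise every ratio by 0.18. The locus median then turns to 0.15, and 8 regions are at least 1.5-fold higher in dKO and 4 in WT. The median of all shared regions rises by the same 0.18, and their shares past 1.5-fold at this scaling are not given here. With a q value of 1e-05 or less the counts were 6 and 3 of 31 shared regions, also without a background at that limit. The interval of counting error lay above no change in 8 regions, below it in 9 and across it in 18. The matching counts over all shared regions are not given here, so these have no background beside them.

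**Figure D4:**
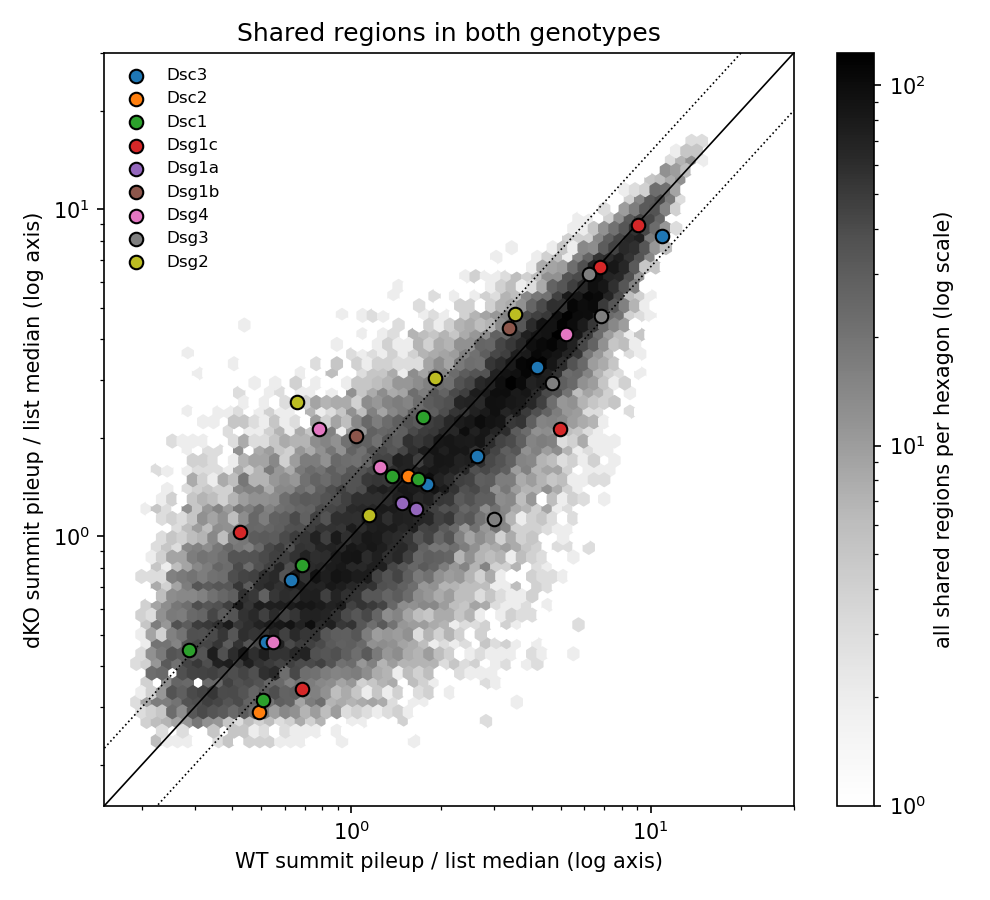
Scaled summit pileup in WT (horizontal, log axis) and dKO (vertical, log axis) of the 35 shared regions, coloured by gene, over all 46759 shared regions assigned to a gene (grey hexagons). The solid line marks equal values and the dotted lines a 1.5-fold difference. There are 6 coloured points above the upper dotted line and 6 below the lower one.

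The highest dKO over WT ratio of the 35 was at the start flank of Dsg2, the widely expressed desmoglein. A region between Dsg3 and Dsg2 (20550747 to 20551602), 6.74 kb below Dsg2, had a pileup of 48 in WT and 98 in dKO. It was 3.92-fold higher in dKO by scaled pileup (log2 1.97, 1.46 to 2.50), and its fold enrichment was 2.79 in WT and 6.68 in dKO. The peak was also wider in dKO, at 856 bp against 345 bp. The neighbouring region (20554122 to 20554819), 3.53 kb below the gene, had pileups of 139 and 116 and was 1.60-fold higher in dKO (log2 0.68, 0.31 to 1.05), with fold enrichments of 3.76 and 4.25. With the start region itself, 3 regions in succession were higher in dKO by scaled pileup. The ratio inside the gene (20565953 to 20567413) was 0.0090 (−0.55 to 0.55).

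The regions around the start of the neighbouring Dsg3 had the opposite sign. A region 4.01 kb below Dsg3 (20506104 to 20506643) had a pileup of 218 in WT and 43 in dKO, and was 2.64-fold higher in WT (log2 −1.40, −1.91 to −0.92). Its fold enrichment was 4.02 in WT and 2.79 in dKO, and its peak was 540 bp wide in WT and 238 bp in dKO. A region inside the gene (20514065 to 20514857) had pileups of 342 and 112 and a log2 ratio of −0.67 (−0.99 to −0.36), but fold enrichments of 2.50 and 2.41, nearly equal. The next region (20516962 to 20518892) had pileups of 454 and 240 and a ratio of 0.022 (−0.21 to 0.25), and its highest summits lay 793 bp apart. Its fold enrichment was 5.03 in WT and 8.77 in dKO. Of the 4 shared Dsg3 regions 3 were thus lower in dKO by pileup, while by fold enrichment 2 were lower and 2 higher.

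**Figure D5:**
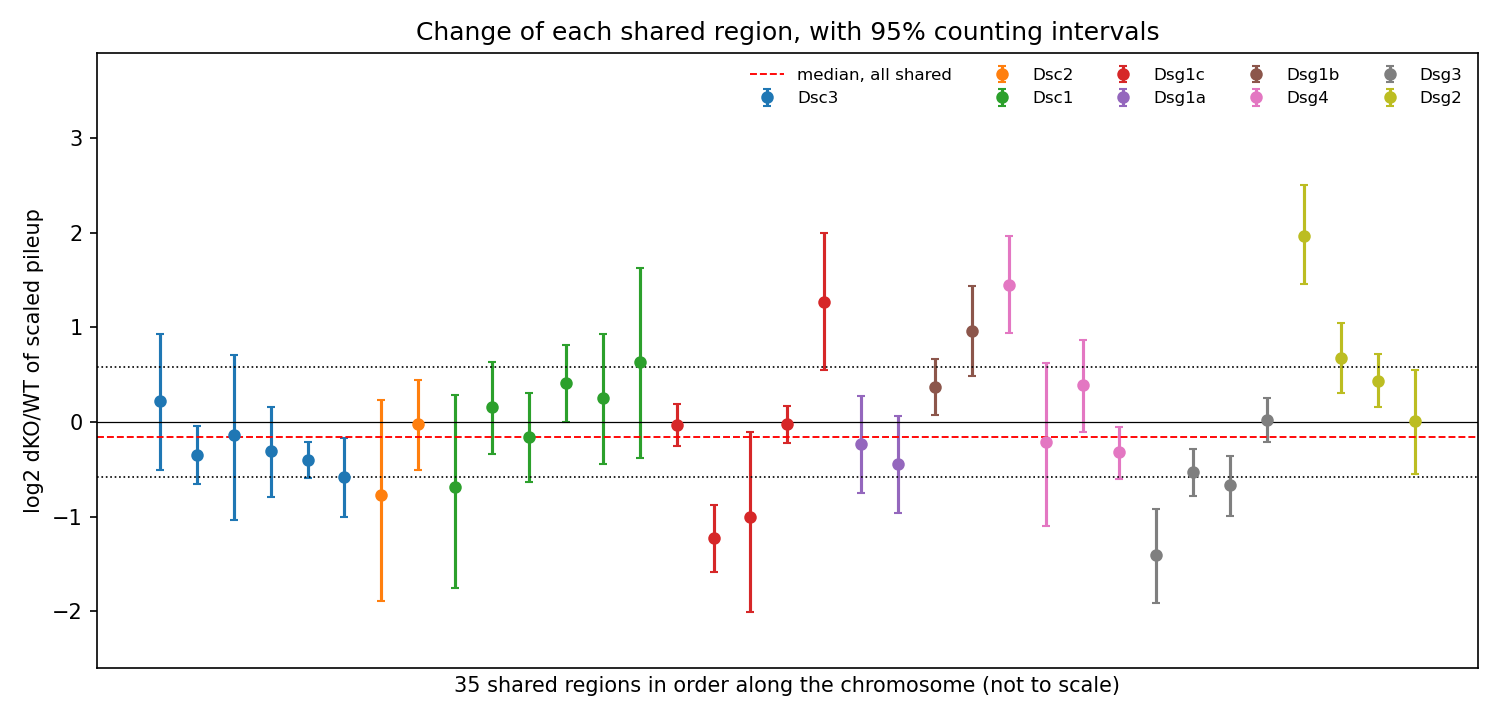
Log2 ratio of dKO over WT scaled pileup (vertical axis) of the 35 shared regions in chromosomal order, coloured by gene, with 95% counting intervals. The dashed line is the median of all shared regions at −0.15 and the dotted lines are 1.5-fold differences. The Dsg3 points lie mostly below and the Dsg2 points at or above the solid line of no change.

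Between the desmocollin and the desmoglein genes lies a stretch of 132.6 kb without a protein-coding gene, and it held 14 of the 54 regions, 11 of them shared. It includes the strongest dKO region of the locus (20227753 to 20229210), 18.7 kb below Dsg1c, which had pileups of 662 and 339 and scaled pileups of 9.07 in WT and 8.92 in dKO. Its log2 ratio was −0.024 (−0.22 to 0.17). A second strong region (20187981 to 20189431) had pileups of 494 and 252 and a ratio of −0.029 (−0.25 to 0.19). Both ratios lay within the counting error of no change.

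A region only 803 bp from the latter differed. It (20190235 to 20191485) had a pileup of 363 in WT and 81 in dKO, a log2 ratio of −1.22 (−1.59 to −0.87), and the interval did not overlap that of its neighbour. Its fold enrichment was 4.73 in WT and 2.97 in dKO, and its peak was 1251 bp wide in WT and 672 bp in dKO. Of the other regions in this stretch, one (20206569 to 20207214) had pileups of 50 and 13 and a ratio of −1.0 (−2.01 to −0.10). The region nearest to Dsg1c (20237327 to 20237706), 9.89 kb below it, had 31 and 39 and a ratio of 1.27 (0.56 to 2.00), with fold enrichments of 5.09 and 10.7. Among the shared regions nearest to Dsc1 in this stretch, the ratio ran up to 0.64 (−0.38 to 1.63) at a weak one (20157644 to 20158133) with pileups of 21 and 17.

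From the region 9.89 kb below Dsg1c (20237327 to 20237706) to the start side of Dsg1a no peak was called over 71.6 kb (20237706 to 20309351). This was the widest empty stretch of the locus, and it holds the whole body of Dsg1c. Dsc1 likewise had no summit inside its body. As the treatment of reads that match several Dsg1 copies is not given, the lack of peaks at Dsg1c is uncertain. The only region inside Dsg4 (20441459 to 20442191) had a pileup of 57 in WT and 81 in dKO and was 2.73-fold higher in dKO (log2 1.45, 0.94 to 1.96). Its fold enrichment was 9.22 in WT and 15.3 in dKO, the highest dKO value of the locus, and its peak was 434 bp wide in WT and 733 bp in dKO. Inside Dsg1b (20383762 to 20385205) the pileups were 76 and 77, a log2 ratio of 0.96 (0.48 to 1.44), while the fold enrichments were 9.56 and 11.4. The highest summits there lay 847 bp apart, so the values come from different parts of one region.

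Above Dsg4 the strongest region (20489428 to 20490476), 18 kb from the gene, had pileups of 379 and 158. Its ratio was −0.32 (−0.60 to −0.049), and by fold enrichment 0.0081. At Dsc2 an internal region (20034408 to 20034814) had pileups of 36 and 11 and a ratio of −0.77 (−1.89 to 0.24), with fold enrichments of 5.88 and 3.22. From Dsc3 up to Dsc1, gene bodies and gaps included, 6 of 6 shared regions had a negative pileup ratio, against 4 of them with the scaling to shared regions and 2 by fold enrichment. This stretch was chosen after its values were seen, it leaves out a region below Dsc3 with a ratio of 0.23, and 61.0% of all shared regions had a negative ratio.

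Of the 12 regions past 1.5-fold, 9 had a counting interval that excluded no change, 7 were past 1.5-fold also by fold enrichment, and 5 met both conditions. Those 5 were the regions below Dsg2 at 6.74 kb, inside Dsg4, at 9.89 kb below Dsg1c (higher in dKO), and the regions of the long stretch with log2 ratios of −1.22 and −1.0 (higher in WT). Counts by these conditions over all shared regions past 1.5-fold are not given here. The sign of the pileup ratio and that of the fold enrichment were the same in all 12, against 87.5% of all shared regions past 1.5-fold. Over all 35 regions the signs differed in 13, against 31.2% of all shared regions. Of the 12 regions 11 lay outside gene ends, as did 86.5% of all shared regions past 1.5-fold.

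Summits were mostly at the same place in both genotypes. The median distance between the highest summits of a shared region was 39 bp, against 45 bp over all shared regions. In 3 of 35 regions it was over 200 bp, against 10.2% of all shared regions. These were at the start side of Dsg1a (544 bp), inside Dsg1b and inside Dsg3.

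Other junction genes showed the following counts. Genes of the desmosomal plaque and associated proteins (10 genes) had 99 regions, with 14 in WT alone, 11 in dKO alone and 74 in both. Of their shared regions 9 were at least 1.5-fold higher in dKO and 24 at least 1.5-fold higher in WT, with a median log2 ratio of −0.33. Adherens junction genes (10) had 39, 13 and 84 regions of these classes, with 9 higher in dKO, 25 higher in WT and a median of −0.30. Hemidesmosome genes (9) had 25, 16 and 84, with 3 higher in dKO, 26 higher in WT and a median of −0.34. By scaled pileup the cadherin locus, at −0.029, thus had the highest median of the 4 lists, but by fold enrichment all 4 medians were positive and close together, at 0.17 for the cadherins, 0.17 for the plaque genes, 0.095 for the adherens junction and 0.13 for the hemidesmosome genes. Over all shared regions assigned to a gene the median was −0.15 by scaled pileup and, also positive, 0.075 by fold enrichment. The spread between mice behind these medians is not known.

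Among partners of the cadherins, Dsp, encoding desmoplakin, had 6 regions in WT alone and 3 in dKO alone, and 0 of its 14 shared regions were higher in dKO and 10 higher in WT by 1.5-fold in scaled pileup, while by fold enrichment the ratio was negative in 7 of 14. Pkp1, encoding plakophilin 1, had 3 and 0, and Pkp4 had 1 and 5. In the other lists Ctnna1, the gene of alpha-catenin, had 13 and 0, Nectin1 had 10 and 3, and Cdh1, the gene of E-cadherin, had 6 and 2. Dst had 9 and 2 and Col17a1 had 6 and 3. These genes were named for their differences, and the lists held others: 3 of 10 adherens junction genes had more regions in dKO alone than in WT alone, and of 9 hemidesmosome genes 3 had more in WT alone, 2 more in dKO alone and 4 equal numbers, such as Itga6 with 5 and 5. Of 22 junction genes with at least 5 regions, those whose WT-only and dKO-only shares over both lists were nearest to the cadherin locus were Afdn (2.25 percentage points away), Jup, the plakoglobin gene (2.82), and Dsp (3.87).

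Markers of the labelled cell type were open in both lists. All 11 hair follicle stem cell markers, among them Cd34, Krt15, Lhx2 and Nfatc1, had regions in both, and 10 had one at a gene end in both. Of 5 markers of suprabasal epidermis, the layers in which Dsg1 and Dsc1 are typical, 4 had regions in both lists and Flg had none. The scaled pileup summed over their regions was 9.27 in WT and 12.7 in dKO, against 344.1 and 279.2 for the stem cell markers, and their part in the values at the cadherin genes was not tested. Summed values were 21.5 and 16.2 for fibroblast, 17.0 and 15.2 for melanocyte, 35.8 and 28.9 for endothelial and 3.64 and 3.68 for immune markers. Most of the melanocyte values came from 1 gene, Pmel, with 11.5 in WT and 10.6 in dKO. Regions in both lists were also found at 4 of 5 fibroblast, 4 of 5 melanocyte and 5 of 5 endothelial markers. Of 5 immune markers, 4 had a region in WT and 2 in dKO. Lum, Tyr and Lyz2 had no region in either list.

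The 100 kb limit removed little. The member farthest from its gene was 58.9 kb away, the next region below Dsc3 lay 259.1 kb from it, and the next region above the last Dsg2 member was nearest to Ttr.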

How the data were processed

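ATAC-seq libraries of 2 WT and 2 dKO mice were read as pairs of 50 bp, per the labels. The submitters' processing notes name Bowtie2 2.2.9, Picard, MACS2, mm10 and GRCm38 without roles. Both mice of a genotype share 1 deposited list. Pooling, read shifting, duplicates and calling settings were not stated in any label or header. The authors' signal column holds the summit pileup, in whole numbers. Their deposited fold column is pileup over local background, each raised by 1, a ratio within the list. The authors' −log10 p and −log10 q columns had damaged header cells and were identified by position: a Poisson p from pileup and background matched within 0.01, for 99.98% of the WT peaks checked and 99.997% in dKO. Mitochondrial peaks were left out.

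Peaks overlapping by at least 1 bp were joined. Genes came from the RefSeq gene table (GRCm38.p6, the same assembly as mm10) and matched 9 of 9 members. A gene end was the stretch within 1 kb of either end, judged by the region's interval. The highest peak of each list stood for a region. Counting intervals of ratios were conditional binomial. Promoter sequences of these genes were not used here, so motif searches and start-site settings were not run. The named regions were those at gene ends, the strongest per gene, single-list regions past the list median and shared regions past 1.5-fold. Others, and the stretches, were chosen after values were seen. Members and gene lists were chosen with earlier results of these data known. Scripts (Python 3.11.15, pandas 2.3.3, scipy 1.17.1) were tested on simulated data and checked against bedtools 2.31.1.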

Additional observations from a re-analysis of the deposited data

How the results depend on the processing

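The WT-only share ran from 16% (lists of equal length) to 27.6% (summits within 200 bp), and the dKO-only share from 7.69% (without the Dsg1 genes) to 17.2% (summits within 200 bp), all within the intervals of the main values. The locus median log2 ratio ran from −0.17 with nearest genes within 20 kb to 0.17 by fold enrichment, within its interval. The gene-end shared share ran from 70% (summits within 200 bp) and 72.7% (gene ends within 2 kb) to 100% with lists of equal length, where the weak WT-only region above Dsc2 dropped out. With a q value of 1e-05 or less, 3 of 31 shared regions in place of 6 of 35 were at least 1.5-fold higher in WT. At that limit Dsg1a had 1 dKO-only region in place of 3, and with summits within 200 bp it had 4 and Dsg3 had 2 in place of 1. Fold enrichment changed the sign of none of the 12 regions past 1.5-fold, but only 7 of them were past 1.5-fold by it. Over all 35 shared regions 5 were at least 1.5-fold higher in dKO and 4 in WT by fold enrichment. Outside the 12, these included regions inside Dsg3 (20516962 to 20518892, log2 0.80) and above Dsg4 (20487841 to 20488418, 0.62). Matching shares of all shared regions by fold enrichment are not given here. For several of the 12, the fold enrichment ratio was nearer to no change than the whole counting interval of the pileup ratio. With the WT list scaled down to the dKO background 10 regions were WT-only and 7 dKO-only. No mouse could be left out, because values per mouse were not used here. No paired analysis was possible because each genotype has 1 list and the mouse numbers are not shared between genotypes.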

Other observations

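Beyond the desmogleins, the first region above Dsg2 lay in Ttr, the gene of the thyroid hormone carrier transthyretin. This region (20664860 to 20666655 of chromosome 18, mm10) had a pileup of 27 in WT and 89 in dKO, a log2 ratio of scaled pileup of 2.66 (counting interval 2.03 to 3.34) and of 0.91 by fold enrichment. B4galt6, a glycosyltransferase gene and the next along the chromosome, had 2 dKO-only and no other regions, with pileups of 11 and 17. Trappc8 followed with 1 dKO-only and 2 shared regions.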
